A study of Mus musculus with 14 samples.

Results

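The 10 genes described here encode the enzymes that make and break down the polyamines putrescine, spermidine and spermine, the antizyme system that controls the first of these enzymes, and the enzyme that supplies S-adenosylmethionine. They were picked by symbol (Odc1, Amd1, Amd2, Srm, Sms, Mat2a, Azin1, Oaz1, Sat1 and Smox) from the 24359 genes used. The rule does not use their measured values, but the members were chosen with earlier results of these data known. Counts among them therefore describe a set that was not chosen blind. All 10 passed the filter on low values, Amd1 at day 3 through a single library. The study sequenced poly(A) RNA from the tibialis anterior, a shin muscle, of C57Bl/6 mice. At day 3 there were 4 follistatin and 3 control libraries, at day 7 there were 2 follistatin and 2 control libraries, and at day 14 there were 2 follistatin libraries and 1 control library. Follistatin, a secreted protein, neutralises myostatin and activins, ligands that limit muscle growth. The labels do not give the route of follistatin, what control muscles received, the age of the mice, or whether replicates were separate animals, so p-values reflect no more than the spread among libraries. The authors' deposited tables name the control group MCS and the follistatin group FST.

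Polyamines are small, positively charged molecules that bind nucleic acids and are needed for growth and protein synthesis. Ornithine decarboxylase makes putrescine, and spermidine synthase and spermine synthase lengthen it with aminopropyl groups taken from decarboxylated S-adenosylmethionine. Antizyme binds ornithine decarboxylase and sends it to the proteasome, antizyme inhibitor ties antizyme up, and acetylation and oxidation run the pathway backwards.

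The values are FPKM, that is, fragments divided by transcript length and by the fragments mapped in the library, so levels of different genes can be set side by side per length. Day 3 libraries were scaled by the authors apart from those of days 7 and 14, and levels are compared within each set. Changes are differences of log2(FPKM + 1), follistatin minus control, from a limma fit over all genes whose mean reached 1 FPKM. Calls were made where the adjusted p (Benjamini-Hochberg, over all genes tested) was under 0.05. Days 7 and 14 were combined, as in the series' design, into 4 follistatin and 3 control libraries, and were then also taken apart.

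The labels were checked with Fst, the gene of follistatin, which ranged from 49.7 to 67.8 FPKM in follistatin libraries and from 1.01 to 1.42 FPKM in control libraries at day 3. On days 7 and 14 it ranged from 367 to 1421 FPKM in follistatin libraries, against 0.808 to 1.17 FPKM in controls. Mb, the gene of myoglobin, was between 525 and 4537 FPKM in every library, and all 4 liver-type markers stayed under 1 FPKM. The other 7 of 8 muscle fibre markers were listed at 0 in at least 1 library, and the authors' deposited table for days 7 and 14 marks these 7 as having too many reads for an estimate. Depth relative to control day 3 replicate 1 was 0.683 to 1.28 in the day 3 libraries, from the steps between low values. In the libraries of days 7 and 14 only 52.9% to 62.9% of low values met such steps, and their depth is not given. Control day 7 replicate 1 had 16158 genes above 0, against 19383 to 20283 in the others of its set.

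Odc1, ornithine decarboxylase, lies on chromosome 12 (GRCm38, chr12:17544794-17551505, plus strand) and was called in both sets. Mat2a, the catalytic subunit of the methionine adenosyltransferase that makes S-adenosylmethionine outside the liver, lies on the minus strand (chr6:72432799-72439558) and was called at day 3. The promoter windows of these 2 called synthesis genes are shown because both genes were called at day 3. They run from 250 bases before to 50 bases after the start, 5′ to 3′ on the strand of the gene, as given by RefSeq for GRCm38.p6. Capitals mark every match to the GC box GGGCGG or the TATA box TATAAA on either strand, with matches that overlap run together.
Odc1, chr12:17544623-17544922, plus strand: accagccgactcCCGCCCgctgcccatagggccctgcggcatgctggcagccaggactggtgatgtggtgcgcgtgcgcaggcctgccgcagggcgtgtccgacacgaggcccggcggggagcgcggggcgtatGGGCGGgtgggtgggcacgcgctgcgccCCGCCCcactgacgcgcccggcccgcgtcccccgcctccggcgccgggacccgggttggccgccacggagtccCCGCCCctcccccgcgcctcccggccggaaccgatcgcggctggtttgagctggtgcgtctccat
Mat2a, chr6:72439507-72439806, minus strand: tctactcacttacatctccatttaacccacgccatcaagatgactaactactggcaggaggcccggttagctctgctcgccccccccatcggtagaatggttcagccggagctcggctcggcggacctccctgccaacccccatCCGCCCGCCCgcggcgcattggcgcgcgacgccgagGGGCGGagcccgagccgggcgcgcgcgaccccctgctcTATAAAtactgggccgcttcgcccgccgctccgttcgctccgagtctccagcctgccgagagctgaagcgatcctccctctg
The Odc1 window holds 4 GC boxes and no TATA box by these letters. The Mat2a window holds 3 GC boxes and a TATA box at position -32 from the start. RefSeq windows matched 8 of the 10 genes, giving 9 windows because Sms has 2, and Azin1 and Srm have no entry there. GGGCGG was in 6 of the 9 windows, against 35.66% of 32851 windows of the same length in the table. TATAAA was in 2 of the 9 windows, those of Mat2a and Oaz1, against 13.62% of all windows. The E-box CACGTG was in 1 of the 9, an Sms window, against 7.15% of all windows. A match is only a match of letters, and no binding was measured.

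**Figure D1:**
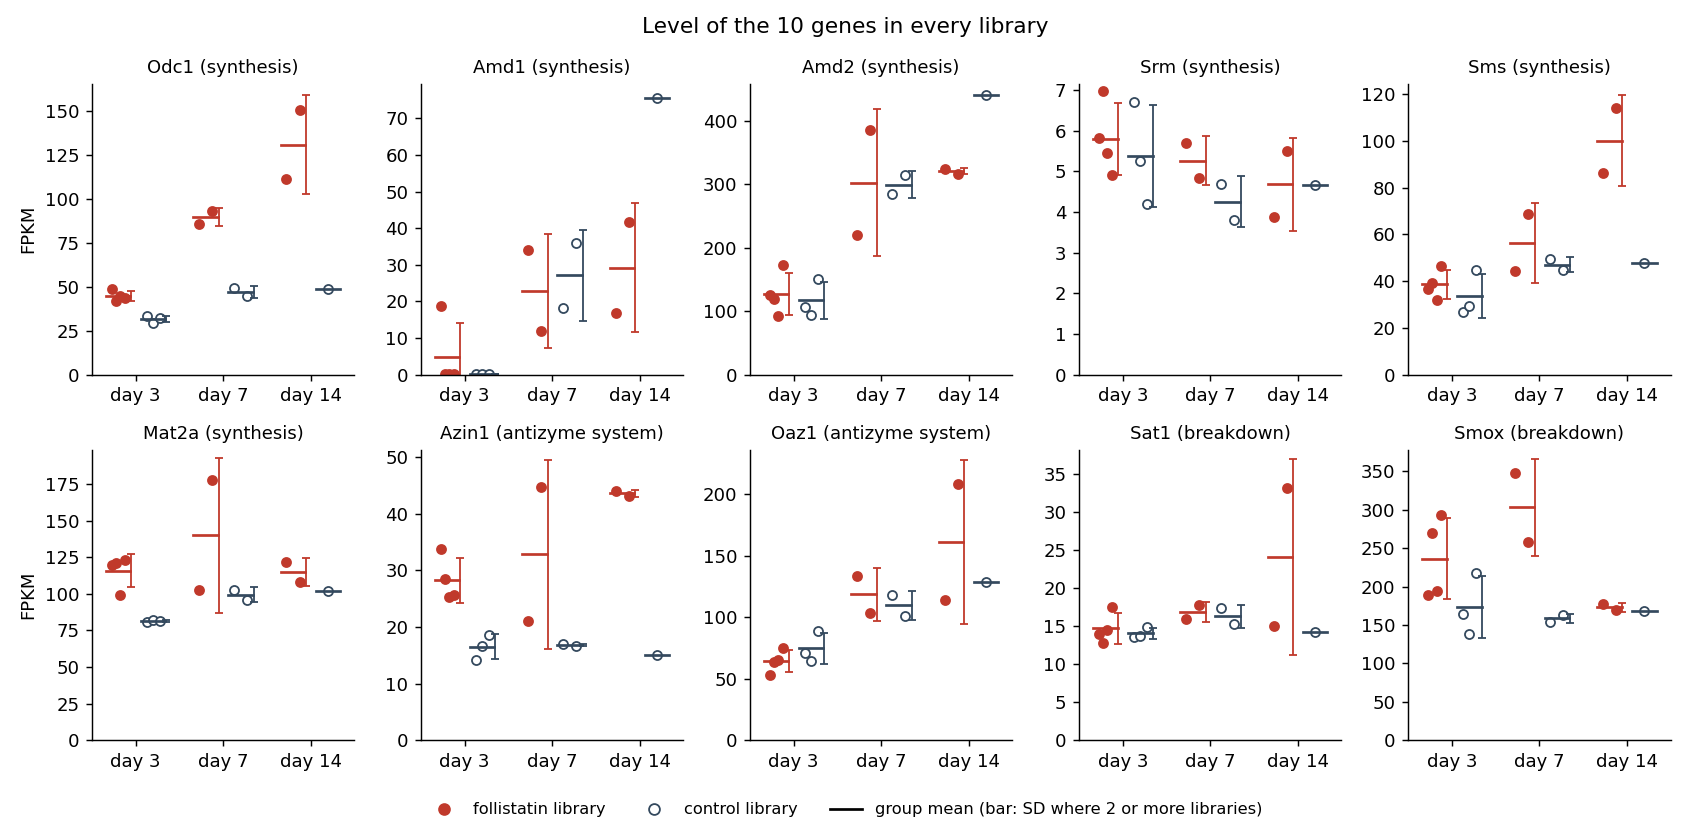
FPKM (y axis, from 0) of each of the 10 genes in every library at days 3, 7 and 14 (x axis), with filled points for follistatin libraries, open points for control libraries, lines for group means and bars for the SD. Odc1 in follistatin libraries lies above the controls at every day, from 41.6 FPKM upwards at day 3 and from 85.8 FPKM upwards later.

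At day 3, 3 of the 10 genes were higher with follistatin by limma's adjusted p and none was lower: Odc1, Mat2a and Azin1. Over all genes tested, 0.923% were called higher and 0.568% lower. A change above 0 was found for 9 of the 10 genes, against 5926 of all 11268 genes tested. The median log2 change of the 10 was 0.33, beside a median of 0.01 over all genes tested. Without Amd1, whose value rests on 1 library, 8 of the other 9 were above 0 and their median was 0.22. The 3 called genes were also those whose follistatin and control libraries did not overlap, a separation that 8.31% of all genes tested had in this direction.

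Among the synthesis genes at day 3, Odc1 had 48.7, 41.6, 44.8 and 43.3 FPKM in follistatin libraries, against 33.1, 29.5 and 32.1 FPKM in control libraries. Every follistatin library lay above every control library. The means were 44.6 ± 3.05 FPKM with follistatin (SD, n = 4) and 31.6 ± 1.89 FPKM in controls (SD, n = 3), 1.41-fold higher. Its log2 change was 0.49 (SE 0.08, limma adjusted p = 0.0222).

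Mat2a had 120, 121, 98.9 and 123 FPKM in follistatin libraries and 80.9, 81.9 and 81.2 FPKM in control libraries at day 3. The controls lay within about 1 FPKM of each other, and follistatin replicate 3 was the lowest of its group while still above them. Mat2a had a log2 change of 0.50 (SE 0.09, limma adjusted p = 0.0285), or 1.42-fold between means. Its annotation shares 508 exon bases with Particl on the opposite strand, and without a stated strand setting reads of these bases cannot be told apart.

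The next synthesis step is spermidine synthase, encoded by Srm, which had the lowest level of the 10 genes after Amd1 at day 3. Srm had 5.83, 6.98, 5.46 and 4.90 FPKM in follistatin libraries, against 6.70, 5.26 and 4.21 FPKM in controls. The groups overlapped, and the log2 change was 0.10 (95% confidence interval -0.26 to 0.45, limma adjusted p = 0.822). Sms, spermine synthase, had 36.8, 39.1, 31.9 and 46.5 FPKM with follistatin and 26.8, 29.4 and 44.5 FPKM in controls. Control replicate 3 lay above 3 of the 4 follistatin libraries, and the log2 change of 0.22 was not called (95% confidence interval -0.20 to 0.64, limma adjusted p = 0.636).

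In the antizyme system at day 3, Azin1, antizyme inhibitor, had 33.8, 28.4, 25.3 and 25.6 FPKM in follistatin libraries, against 14.2, 16.6 and 18.6 FPKM in control libraries. The groups did not overlap, and this was the largest of the 3 called changes, at 1.72-fold between means. Azin1 had a log2 change of 0.74 (SE 0.13, limma adjusted p = 0.0271). Its annotation (chr15:38487427-38519266, minus strand) shares 358 exon bases with Gm49077 on the opposite strand. Oaz1, antizyme 1, the protein that Azin1 counteracts, had 52.7, 63.7, 65.3 and 74.7 FPKM in follistatin libraries and 70.6, 64.3 and 89.1 FPKM in control libraries. These groups overlapped, and the log2 change of Oaz1 was -0.21 (95% confidence interval -0.54 to 0.11, limma adjusted p = 0.529).

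The breakdown genes were not called at day 3. Sat1, the acetyltransferase that starts the return from spermine and spermidine, had 14.0, 12.8, 14.5 and 17.5 FPKM with follistatin and 13.6, 13.7 and 14.9 FPKM in controls. Its log2 change was 0.05, with a 95% confidence interval of -0.19 to 0.30. Smox, spermine oxidase, which turns spermine back into spermidine, had 189, 269, 194 and 293 FPKM in follistatin libraries, against 165, 138 and 217 FPKM in control libraries. Control replicate 3 lay above 2 of the 4 follistatin libraries, and the log2 change of 0.44 was not called (95% confidence interval -0.01 to 0.90, limma adjusted p = 0.341). The authors' deposited table gives Smox a locus shared by 13 genes, and a q of 0.148 at day 3.

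The day 3 calls rest on all 7 libraries. None of the 3 was called without any 1 of control replicates 1, 2 or 3 or without follistatin replicate 1, nor in a fit of all 14 libraries. Odc1 alone was called without follistatin replicate 2, Mat2a alone without follistatin replicate 3, and Odc1 and Azin1 without follistatin replicate 4. Across all alternatives that ended a call the adjusted p ran from 0.0553 to 0.177 for Odc1, from 0.0707 to 0.187 for Mat2a and from 0.0501 to 0.183 for Azin1, and each change stayed above 0. The authors' deposited table, made from the same libraries, calls the same 3 genes at day 3, with a q of 0.00191 for each. Fst has that same q there at a log2 fold change of 5.57, so this q does not rank the changes. The share of all genes called in that table was not counted.

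Amd1 and Amd2 encode S-adenosylmethionine decarboxylase, the source of the aminopropyl groups, and their values could not be held apart. The authors' deposited table places both at the same locus, while GENCODE M21 places Amd1 at chr10:40287458-40302186 and Amd2 at chr10:35708675-35711892, both on the minus strand of GRCm38. Their annotated coding sequences of 1005 bases differ at 1 base, G796C, counted from the A of the start codon with the Amd1 base first. Of the windows of 50 bases in the Amd2 transcript, 85.67% are also in the Amd1 transcript, and of those of 100 bases 72.88% are. The stretch around that base is shown because a read must cover such a place to be given to a single copy, with the base that differs in capitals.
Amd1, chr10:40290161-40290211, minus strand: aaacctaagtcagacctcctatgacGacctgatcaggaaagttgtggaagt
Amd2, chr10:35710739-35710789, minus strand: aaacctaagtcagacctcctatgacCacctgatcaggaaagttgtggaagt
Amd1 was listed at 0.0777 to 0.0779 FPKM in 6 of the 7 day 3 libraries and at 18.7 FPKM in follistatin replicate 1, without which it is under the filter on low values. Amd2 had 125, 119, 92.7 and 172 FPKM in follistatin libraries at day 3, against 107, 93.5 and 150 FPKM in controls. The summed level of both was 144, 119, 92.7 and 172 FPKM with follistatin and 107, 93.6 and 150 FPKM in controls, and these groups overlapped. Fitted as a sum, an alternative added after the data were seen, the log2 change was 0.17 at day 3 (limma adjusted p = 0.788) and -0.19 on days 7 and 14 combined (limma adjusted p = 0.581). Fitted apart at day 3, the log2 change was 1.05 for Amd1 (95% confidence interval -1.18 to 3.28) and 0.12 for Amd2 (95% confidence interval -0.39 to 0.62), and neither was called.

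On days 7 and 14 combined, Odc1 and Azin1 were higher with follistatin, 2 of the 10 genes, and none was lower. Over all genes tested, 2.24% were called higher and 3.27% lower. A change above 0 was found for 8 of the 10, against 4328 of all 11047 genes tested. The median log2 change of the 10 was 0.31, beside a median of -0.09 over all genes tested. The share of higher calls over all genes depended on the scaling: 247 of 608 calls were higher with FPKM as deposited, which is 40.6%, and 62.0% were higher after rescaling by the median ratio, under which both genes stayed called. The follistatin libraries lay above all controls for 3 genes (Odc1, Azin1 and Smox), as for 8.96% of all genes tested.

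Odc1 had 85.8 and 93.2 FPKM in follistatin libraries of day 7, against 49.3 and 44.7 FPKM in controls of day 7. On day 14 Odc1 had 111 and 151 FPKM in follistatin libraries and 48.6 FPKM in the control. Each follistatin library lay above each control, and the day 14 follistatin libraries lay above those of day 7. Over both days the means of Odc1 were 110 ± 29.0 FPKM with follistatin (SD, n = 4) and 47.5 ± 2.48 FPKM in controls (SD, n = 3), 2.32-fold higher, with a log2 change of 1.16 (SE 0.19, limma adjusted p = 0.0193).

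Taken apart by day, the log2 change of Odc1 was 0.92 at day 7 (SE 0.19, limma adjusted p = 0.201) and 1.39 at day 14 (SE 0.23, limma adjusted p = 0.109). Neither was called at its own day with the libraries as given. The day 14 change was called when small RNA genes, 305 of the 11047 genes tested, were left out (limma adjusted p = 0.0383). On days 7 and 14 combined Odc1 was no longer called without control day 7 replicate 1 (limma adjusted p = 0.1004), control day 7 replicate 2 (0.0818) or control day 14 replicate 1 (0.0860), while it stayed called without any 1 follistatin library. The authors' deposited table, made from the same libraries, gives Odc1 a q of 0.000894 for this set, the same q as for Azin1 and Fst.

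Azin1 had 21.0 and 44.6 FPKM in follistatin libraries of day 7 and 44.0 and 43.1 FPKM in those of day 14. Its controls had 17.0 and 16.7 FPKM at day 7 and 15.005 FPKM at day 14. Follistatin day 7 replicate 1 lay near the controls, and the other 3 follistatin libraries lay close together far above them. The log2 change of Azin1 was 1.13 (SE 0.26, limma adjusted p = 0.0480), or 2.35-fold between means. That call was lost without any 1 of the 3 controls (limma adjusted p from 0.132 to 0.188), without follistatin day 7 replicate 2 (0.0767), follistatin day 14 replicate 1 (0.0921) or follistatin day 14 replicate 2 (0.0890), and with day as a covariate (0.0656) or no filter on low values (0.0832). By day the log2 change of Azin1 was 0.83 at day 7 (limma adjusted p = 0.402) and 1.48 at day 14 (limma adjusted p = 0.243).

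Oaz1 had 134 and 103 FPKM in follistatin libraries of day 7 and 114 and 208 FPKM in those of day 14, against 118 and 101 FPKM in day 7 controls and 129 FPKM in the day 14 control. The groups overlapped on both days, with a log2 change of 0.22 over the combined days (95% confidence interval -0.33 to 0.77). Oaz1 shares 74 exon bases with Mir1982 on the same strand.

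Within a library, the level of Odc1 divided by that of Oaz1 sets the RNA of the decarboxylase against the RNA of its antizyme, and the proteins were not measured. At day 3 this ratio was 0.925, 0.653, 0.686 and 0.580 in follistatin libraries, against 0.469, 0.458 and 0.360 in control libraries. At day 7 it was 0.641 and 0.904 with follistatin and 0.417 and 0.442 in controls, and at day 14 it was 0.976 and 0.724 with follistatin and 0.378 in the control. The follistatin libraries lay above the controls on each day. The ratio of Azin1 to Oaz1 was 0.342 to 0.642 with follistatin and 0.201 to 0.258 in controls at day 3. At day 7 the groups of the Azin1 ratio overlapped, with 0.157 and 0.433 in follistatin libraries and 0.144 and 0.165 in controls. At day 14 it was 0.387 and 0.207 with follistatin and 0.117 in the control. These ratios describe the RNA levels given above and have no test of their own.

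**Figure D2:**
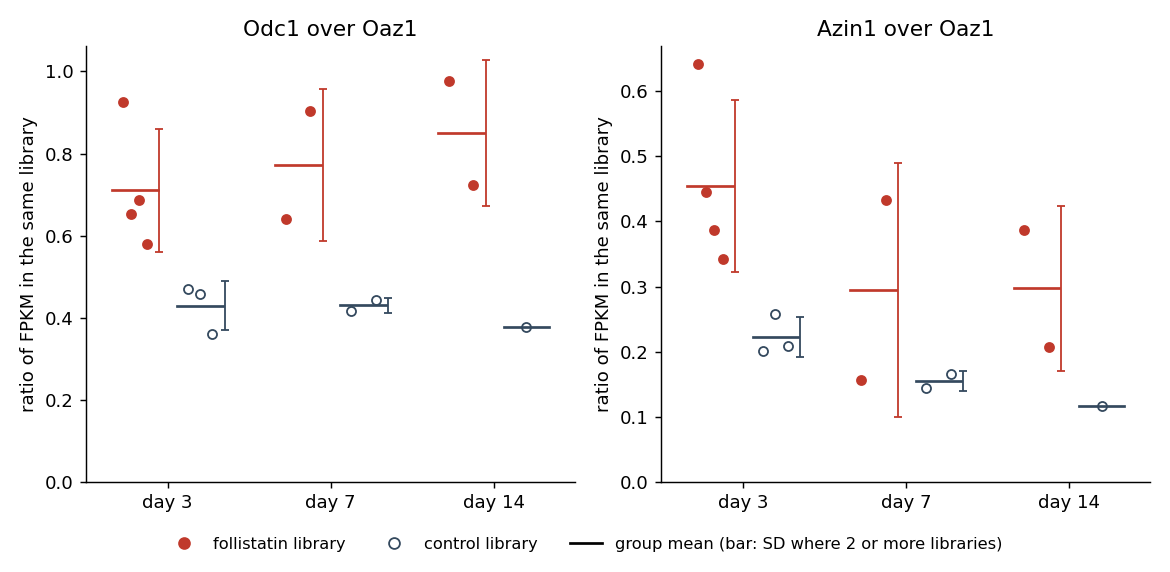
Ratio of FPKM in the same library (y axis, from 0) of Odc1 over Oaz1 and of Azin1 over Oaz1 at days 3, 7 and 14 (x axis), with filled points for follistatin libraries, open points for control libraries, lines for group means and bars for the SD. The lowest follistatin value of the Odc1 ratio at day 3 is 0.580 and the highest control value is 0.469, while 1 follistatin library of day 7 lies at 0.157 for the Azin1 ratio, between both controls.

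The aminopropyl transferases, Sms and Srm, were not called on the later days with the libraries as given. Sms had 44.3 and 68.6 FPKM in follistatin libraries of day 7 against 49.4 and 44.8 FPKM in controls, and 86.4 and 114 FPKM in follistatin libraries of day 14 against 47.7 FPKM in the control. The groups overlapped at day 7 through follistatin replicate 1 and did not overlap at day 14. The log2 change of Sms was 0.64 over the combined days (95% confidence interval -0.02 to 1.29, limma adjusted p = 0.185) and was called without follistatin day 7 replicate 1 (0.88, limma adjusted p = 0.0402). The authors' deposited table calls Sms in this set, with a log2 fold change of 0.70 and a q of 0.00158. At day 14 alone its log2 change was 1.04 (95% confidence interval 0.25 to 1.83, limma adjusted p = 0.262).

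Srm had 5.69 and 4.84 FPKM in follistatin libraries of day 7 and 3.88 and 5.49 FPKM in those of day 14, against 4.70 and 3.81 FPKM in day 7 controls and 4.67 FPKM in the day 14 control. Over the combined days Srm had a log2 change of 0.14 (95% confidence interval -0.17 to 0.46). Mat2a had 102 and 177 FPKM with follistatin at day 7 and 122 and 108 FPKM at day 14, against 103 and 95.6 FPKM in day 7 controls and 102 FPKM in the day 14 control. Only follistatin day 7 replicate 2 lay far above the controls of this set. The log2 change of Mat2a was 0.31 (95% confidence interval -0.13 to 0.75, limma adjusted p = 0.307).

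Amd1 had 33.9 and 11.8 FPKM in follistatin libraries of day 7 and 16.8 and 41.6 FPKM in those of day 14, against 18.3 and 35.9 FPKM in day 7 controls and 75.4 FPKM in the day 14 control. Amd2 had 220 and 385 FPKM with follistatin at day 7 and 324 and 317 FPKM at day 14, against 284 and 315 FPKM in day 7 controls and 441 FPKM in the day 14 control. The groups overlapped at day 7, and the lone control of day 14 lay above both follistatin libraries for each gene. The log2 changes over the combined days were -0.65 for Amd1 (95% confidence interval -1.92 to 0.61) and -0.15 for Amd2 (95% confidence interval -0.66 to 0.35), the only 2 of the 10 below 0, and neither was called.

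Of the breakdown genes, Smox had 348 and 258 FPKM in follistatin libraries of day 7, against 154 and 163 FPKM in controls. On day 14 Smox had 177 and 169 FPKM with follistatin and 168 FPKM in the control. The day 7 libraries stood far apart by treatment, and the day 14 libraries lay close together. The log2 change of Smox was 0.91 at day 7 (95% confidence interval 0.45 to 1.38, limma adjusted p = 0.193), 0.04 at day 14 (95% confidence interval -0.53 to 0.60) and 0.49 over the combined days (95% confidence interval -0.08 to 1.06, limma adjusted p = 0.229). Sat1 had 15.9 and 17.8 FPKM in follistatin libraries of day 7 and 15.03 and 33.2 FPKM in those of day 14, against 17.4 and 15.3 FPKM in day 7 controls and 14.2 FPKM in the day 14 control. Follistatin day 14 replicate 2 alone stood apart for Sat1, and the log2 change over the combined days was 0.30 (95% confidence interval -0.29 to 0.90).

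Counted by day, 0 of the 10 genes were called at day 7, where limma called 0.154% of all genes tested higher and 0.0634% lower. At day 7, 2 of the 10 (Odc1 and Smox) had an unadjusted limma p under 0.05, against 1402 of all 11047 genes tested. At day 14, 0 of the 10 were called, where limma called 0.226% of all genes higher and 0.281% lower. On that day 3 of the 10 (Odc1, Sms and Azin1) had an unadjusted limma p under 0.05, against 1664 of all 11047 genes tested. The median log2 change of the 10 was 0.24 at day 7 and 0.21 at day 14, beside -0.08 over all genes tested at each day. Follistatin libraries lay above all controls for 4 of the 10 genes at day 7, against 18.3% of all genes, and for 6 of the 10 at day 14, against 27.2% of all genes. They lay below the lone control of day 14 for 2 of the 10, Amd1 and Amd2, against 45.3% of all genes. The tests by day use the same libraries as the combined test. The day 14 values assume that the lone control varies like the other groups of its set.

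**Figure D3:**
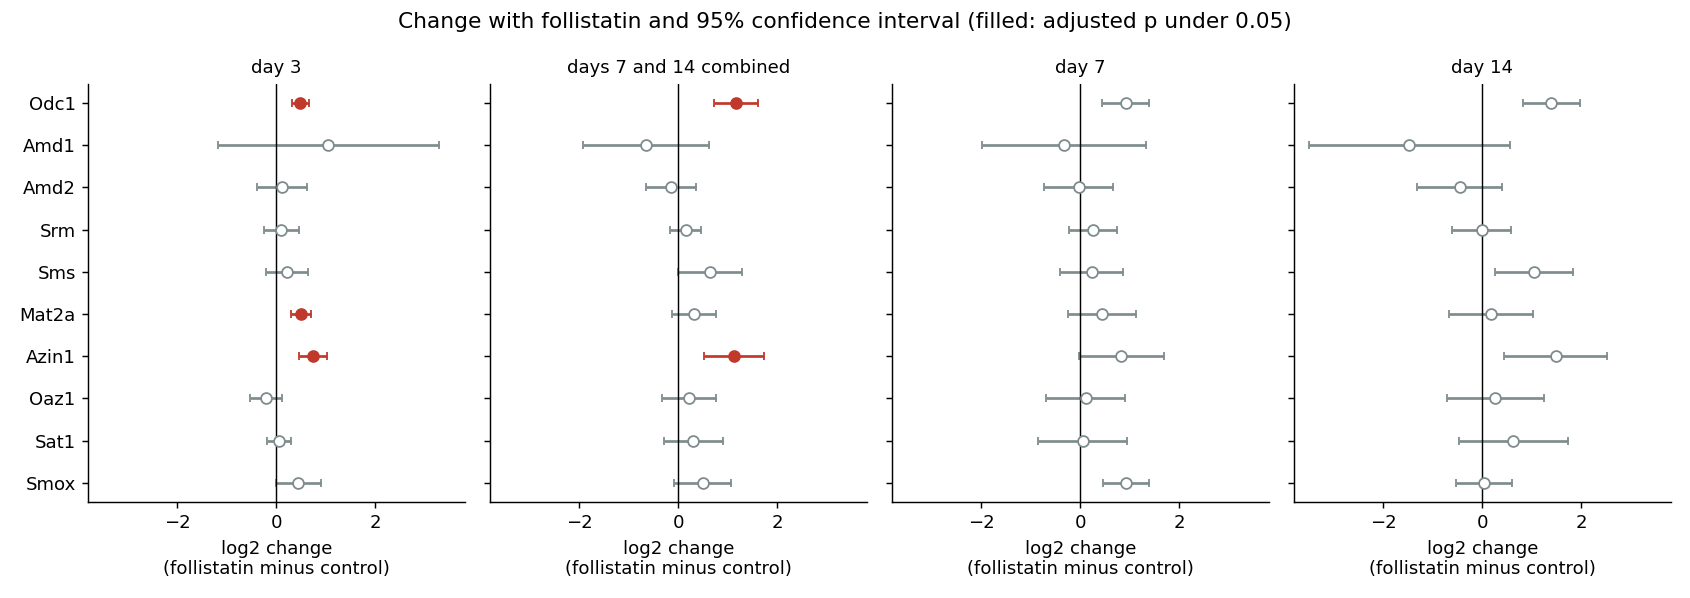
Log2 change of FPKM + 1 (x axis, follistatin minus control) of each of the 10 genes at day 3, over days 7 and 14 combined, at day 7 and at day 14, with 95% confidence intervals from limma. Filled points have an adjusted p under 0.05: Odc1, Mat2a and Azin1 at day 3 and Odc1 and Azin1 over days 7 and 14 combined, where the change of Odc1 is 1.16.

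Whether the changes differed between times was tested as a difference of changes. For days 7 and 14 combined minus day 3, none of the 10 genes was called by limma, against 0.0619% of all genes called higher and 0.0265% lower. An unadjusted limma p under 0.05 was found for 1678 of all 11306 genes tested and, among the 10, only for Odc1. Its change was larger by 0.68 on the later days (95% confidence interval 0.22 to 1.14, limma adjusted p = 0.217). The same difference was 0.38 for Azin1 (95% confidence interval -0.28 to 1.05) and -0.19 for Mat2a (95% confidence interval -0.65 to 0.28). All genes tested had a median of -0.11 in this difference, which became 0.0046 after rescaling by the median ratio. The share of higher calls was 70.0% before rescaling (7 of 10 genes called) and 100% after it (6 of 6).

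For day 14 minus day 7, none of the 10 was called by limma, against 0.0453% of all genes called higher and 0.263% lower. An unadjusted limma p under 0.05 was found for 203 of all 11047 genes tested and, among the 10, only for Smox. The Smox change was -0.88 in this difference (95% confidence interval -1.61 to -0.15, limma adjusted p = 1.00). The difference was 0.81 for Sms (95% confidence interval -0.20 to 1.83) and 0.48 for Odc1 (95% confidence interval -0.27 to 1.22).

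Markers of other cell types were measured beside these genes. All 6 endothelial markers were below 0 in change at every comparison with controls, with 1 called lower over the combined days, and their summed level was 98.2 to 112 FPKM with follistatin and 120 to 131 FPKM in controls at day 3. That sum was 87.6 to 102 FPKM with follistatin against 134 to 158 FPKM in controls at day 7, and 52.3 to 81.8 FPKM against 118 FPKM at day 14. The 6 smooth muscle and pericyte markers summed to 183 to 226 FPKM with follistatin and 226 to 251 FPKM in controls at day 3, and to 39.0 to 100 FPKM against 123 to 172 FPKM on the later days. The 6 fibroblast markers were also all below 0 in change, with 0 called, and summed to 537 to 653 FPKM with follistatin and 584 to 769 FPKM in controls at day 3. On the later days the fibroblast sum was 342 to 542 FPKM with follistatin and 422 to 658 FPKM in controls. The 6 macrophage markers summed to 29.5 to 59.6 FPKM with follistatin and 38.9 to 46.2 FPKM in controls at day 3. At day 7 the macrophage sum was 19.6 to 23.7 FPKM with follistatin and 13.2 to 28.9 FPKM in controls, and at day 14 it was 22.1 to 45.2 FPKM against 12.04 FPKM. Mb, the 1 fibre marker tested on days 7 and 14, was lower with follistatin, with a log2 change of -2.04 in the combined test. In bulk muscle, fewer cells of a type and less RNA per cell cannot be told apart, and the part of these markers in the changes of the 10 genes was not tested.

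Genes around the pathway were counted from 4 further lists. Of 11 other polyamine genes (arginases, ornithine aminotransferase, agmatinase, further antizymes, an antizyme inhibitor, an oxidase, an acetyltransferase and transporters), 6 were tested and 0 called in either set. Of 5 methionine salvage genes, which recover the methylthio part left over by polyamine synthesis, all 5 were tested and 0 called. Of 11 methionine cycle genes, 8 were tested at day 3 and 7 later, and 0 were called. The median log2 changes of these lists lay between -0.14 and 0.09 at day 3 and in the combined test.

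The 4 genes of the hypusine pathway, which uses spermidine to modify a translation factor, held the only call among these lists. Eif5a, the translation factor that carries hypusine, had 399, 342, 309 and 412 FPKM in the follistatin libraries of days 7 and 14, against 228, 232 and 260 FPKM in their controls. The follistatin libraries lay above all controls, as for 8.96% of all genes tested, and the log2 change was 0.60 (SE 0.13, limma adjusted p = 0.0432). That call was lost without any 1 of the 3 controls (limma adjusted p from 0.126 to 0.201) and without follistatin day 7 replicate 1 (0.0546), follistatin day 7 replicate 2 (0.0630) or follistatin day 14 replicate 2 (0.0660). It was also lost with no filter on low values (0.0907) and with day as a covariate (0.0618). At day 3 Eif5a had a log2 change of 0.14 (limma adjusted p = 0.287). Dhps, which starts the hypusine modification, had a log2 change of -0.25 at day 3 and -0.15 over the combined days, and neither was called.

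The pathway genes of smallest p in the other 3 lists were not called. Atp13a2, a lysosomal polyamine exporter, had 4.55, 5.83, 5.68 and 5.42 FPKM with follistatin at day 3, against 7.24, 8.87 and 8.38 FPKM in controls, with a log2 change of -0.52 (limma adjusted p = 0.0620). It had 4.87, 4.44, 3.26 and 3.00 FPKM with follistatin on days 7 and 14, against 5.60, 6.24 and 6.21 FPKM in controls, with a log2 change of -0.54 (limma adjusted p = 0.0757). The follistatin libraries of Atp13a2 lay below all controls in both sets, but the share of all genes that did so is not given here. Atp13a2 was called at day 3 when small RNA genes were left out (0.0396). Over the combined days it was called without follistatin day 7 replicate 1 (0.0422) and with all 14 libraries in a joint fit (0.0154). Atp13a3, a related transporter, had a log2 change of 0.62 at day 3 (limma adjusted p = 0.124), and Mtap, the phosphorylase that opens methionine salvage, had 0.35 (limma adjusted p = 0.153).

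Cth, of the route from homocysteine to cysteine, had a log2 change of -0.67 at day 3 (limma adjusted p = 0.141) at means of 1.40 FPKM with follistatin and 2.76 FPKM in controls. Adi1 of methionine salvage had -0.20, and Mat2b, the regulatory subunit beside Mat2a, had 0.15 in log2 change at day 3. Over the combined days the log2 changes were 0.66 for Sat2 (limma adjusted p = 0.108), 0.34 for Ahcy, which breaks down S-adenosylhomocysteine (limma adjusted p = 0.0614), -0.45 for Ahcyl2 (limma adjusted p = 0.101), -0.23 for Enoph1 and 0.20 for Mtap. Ahcy was called after rescaling by the median ratio (0.43, limma adjusted p = 0.0382), and Ahcyl2 with all 14 libraries in a joint fit (0.0247).

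By day, the pathway genes of smallest p were not called. At day 7 the log2 change was 0.68 for Eif5a, -0.18 for Dhps, -0.29 for Atp13a2, 0.71 for Sat2, 0.26 for Mtap, -0.15 for Adi1, -0.59 for Ahcyl2 and 0.37 for Ahcy. At day 14 the log2 change was 0.45 for Eif5a, -0.32 for Dohh, -0.80 for Atp13a2, 0.84 for Atp13a3, 0.24 for Mtap, -0.41 for Enoph1, 0.28 for Ahcy and -0.33 for Ahcyl1.

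Likeness to Odc1 was measured for 10078 genes by Pearson's r over the 14 libraries, on log2(FPKM + 1) after taking off the mean of the controls of the same set (day 3, or days 7 and 14). The libraries fall into groups by treatment and day, which enters every r, so r is a description with no test. The 5 genes most like Odc1 were Manf (0.985), Surf4 (0.984), Pdia6 (0.981), Plp2 (0.979) and Smpx (0.977). Among the other 9 genes r was 0.88 for Azin1 (rank 146), 0.79 for Sms (rank 398) and 0.64 for Sat1 (rank 987). It was 0.45 for Oaz1, 0.39 for Mat2a, 0.33 for Smox and 0.32 for Srm, and it was below 0 for Amd1 and Amd2. Manf averaged 28.2 ± 15.1 FPKM with follistatin (SD, n = 4) and 5.67 ± 0.22 FPKM in controls (SD, n = 3) on days 7 and 14, with a log2 change of 1.98. Since Manf was picked by its likeness to Odc1 in these same libraries, that difference is a description and no test.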

How the data were processed

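Poly(A) RNA of mouse tibialis anterior was measured in 14 libraries prepared with an Illumina TruSeq kit, per the labels' protocols. TopHat and Cuffdiff, with build mm10, are named in the submitters' processing notes; versions, annotation and strand setting are not given in the sources used here. Values are FPKM of each gene in each library, as deposited and scaled by the authors. The authors' deposited tables of Cuffdiff results hold log2 fold changes, p-values and q-values for day 3 and for days 7 and 14. No read counts were used, so absolute depth is unknown.

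Each file lists 24386 genes. The 27 symbols turned into dates were dropped, leaving 24359, and genes the authors marked as having too many reads (4 at day 3, 31 later) were left out of tests. Tests used limma 3.58.1 in R 4.3.3 (lmFit, eBayes with trend) on log2(FPKM + 1), for genes whose mean over the libraries fitted reached 1 FPKM, two-sided, with Benjamini-Hochberg adjustment over all genes tested. The added 1 makes log2 changes of low genes smaller than the ratio of their means. Day 7, day 14 and their difference came from a fit with 1 mean per treatment and day. The difference between the later days and day 3 was fitted over all 14 libraries. The fits were tested on simulated data with added log2 changes of 1 in size. Of these, 84% were called at day 3, 69.7% over days 7 and 14, 39.4% at day 7 and 7% at day 14. For the differences, 55% were called for the later days minus day 3 and 1% for day 14 minus day 7. An absent call at day 7, at day 14 or between them therefore says little about a change of that size. The changes were added only to genes well above the filter on low values, so lower genes are not covered. For days 7 and 14 combined, the simulated spread was taken within each treatment and day. The spread of the real combined fit also holds differences between these days, so 69.7% may be too high for it.

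Named genes are the 10 chosen by symbol, the called genes of 4 pathway lists or the 2 of each list with the smallest p, and the 5 genes most like Odc1. The members and lists were chosen with earlier results of these data known. Relative depth came from ratios of whole reads (up to 6) between values under 0.5 FPKM, within 0.02 on the log2 scale. Positions are from GENCODE M21 (GRCm38), promoters from RefSeq (GRCm38.p6). Alternatives were a pseudocount of 0.1, no filter, rescaling by the median ratio, leaving out small RNA genes, leaving out each library, a replicate block, day as a covariate, a joint fit of all 14 libraries and day 7 libraries alone. Keeping the genes marked as having too many reads, summing Amd1 and Amd2, and counting without Amd1 were added after the data were seen.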

Additional observations from a re-analysis of the deposited data

Results flagged for a closer look

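In 4 of the 20 sets of 4 follistatin libraries examined (10 genes at day 3 and over days 7 and 14), 1 library lay farther from the rest than Dixon's 95% critical value of 0.829 allows; chance alone flags about 1 in 20 such groups. Amd1 was 18.7 FPKM in follistatin day 3 replicate 1, and the nearest of the other follistatin libraries of that day was at 0.0779 FPKM; the split of reads between Amd1 and Amd2 limits this value. Mat2a was 98.9 FPKM in follistatin day 3 replicate 3, with the nearest at 120 FPKM. Azin1 was 21.0 FPKM in follistatin day 7 replicate 1, with the nearest of the follistatin libraries of days 7 and 14 at 43.1 FPKM. Sat1 was 33.2 FPKM in follistatin day 14 replicate 2, with the nearest of that set at 17.8 FPKM. For the later days a set holds 2 libraries of each day.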

How the results depend on the processing

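The 3 genes called at day 3 and the 2 called over days 7 and 14 kept a change above 0 under every alternative run, and 0 of the reversed changes was of a called gene. Calls were less stable. The number of the 10 genes called ran from 0 to 2 at day 3 and from 0 to 3 over days 7 and 14 when 1 library was left out in turn. It was 0 at day 3 with all 14 libraries in 1 fit, 1 over days 7 and 14 with no filter on low values and 1 with day as a covariate (Odc1 each time), and 1 at day 14 without small RNA genes.

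Counts over all genes moved too. Leaving out 1 library gave 39 to 165 genes called at day 3, 43 to 907 over days 7 and 14, 9 to 59 at day 7, 36 to 90 at day 14, 2 to 32 for the later days minus day 3, and 48 to 77 for day 14 minus day 7. Without small RNA genes the counts were 266 at day 3, 964 over days 7 and 14, 72 at day 7, 120 at day 14 and 1 for day 14 minus day 7, against 168, 608, 24, 56 and 34 as reported. With no filter they were 284 over days 7 and 14, 15 at day 7 and 2 for the later days minus day 3, against 10 as reported. All 14 libraries in 1 fit gave 2071 over days 7 and 14. Rescaling gave 6, and keeping genes marked as having too many reads 24, for the later days minus day 3, and keeping those genes gave 49 at day 7. A pseudocount of 0.1 gave 10 for day 14 minus day 7. The cause of these shifts was not tested.

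With the replicate number as a block, 0 of the 10 genes and 19 genes in all were called at day 3 (Odc1 0.50, adjusted p = 0.136; Mat2a 0.47, 0.187; Azin1 0.78, 0.183), 1 of the 10 (Odc1) and 164 in all over days 7 and 14, and 156 in all at day 7. Eif5a was no longer called over days 7 and 14 (0.54, adjusted p = 0.129). Under the block Amd2 was -0.040 and Sat1 -0.029 at day 3. The numbers were not shown to pair the libraries. Deviations of same-numbered libraries correlated at -0.06 to -0.04 at day 3 and at 0.01 at day 7. At day 3, 0 of 3 follistatin libraries correlated best with the control of their own number. At day 7 it was 2 of 2, but a group there has only 2 libraries. Their deviations mirror each other, so the day 7 count cannot tell whether the numbers pair.

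Signs turned only for changes that were not called and were 0.34 or less in size. Rescaling gave 0.060 for Amd2 at day 7 and 0.076 for Srm at day 14. When 1 library was left out, changes spanned 0 at day 3 for Amd2 (-0.040 to 0.31), Srm (-0.039 to 0.24) and Sat1 (-0.029 to 0.11). They did so over days 7 and 14 for Amd2 (-0.28 to 0.031), and at day 7 for Amd1 (-1.06 to 0.39), Amd2 (-0.44 to 0.36), Oaz1 (-0.082 to 0.29), Sat1 (-0.041 to 0.13) and Sms (-0.083 to 0.53). At day 14 they did so for Oaz1 (-0.18 to 0.69) and Srm (-0.22 to 0.20). For the later days minus day 3 they did so for Smox (-0.16 to 0.20) and Srm (-0.10 to 0.18), and for day 14 minus day 7 for Mat2a (-0.66 to 0.12) and Oaz1 (-0.28 to 0.59). Day 14 and its difference from day 7 were not run without the lone day 14 control, which leaves no control. Absolute depth is unknown, which limits how low levels such as those of Srm can be read.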
